A study of Danio rerio with 16 samples.

Results

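The SoxB genes encode transcription factors with an HMG box, the DNA-binding domain shared by all Sox proteins. Members of the SoxB1 branch (sox1a, sox1b, sox2, sox3 and sox19a) are activators known for keeping cells pluripotent or neural, and they bind many enhancers side by side with POU factors such as Pou5f1. The SoxB2 branch (sox21a) acts mainly as a repressor at similar sites. In the zebrafish embryo sox21a is known as a transcript that the mother deposits in the egg. The genes sox19a, sox3 and sox2 are switched on early from the embryo's own genome, while sox1a and sox1b are known from the later lens and nervous system.

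All probes whose symbol in the array's probe-to-gene table is sox2, sox3, sox19a, sox1a, sox1b or sox21a were taken, which gave 6 genes with 1 probe each of 9238 named genes. The maternal SoxB1 gene sox19b was not analysed here. Levels were read in 16 samples of whole zebrafish embryos on 2-colour Agilent arrays, 1 sample per dye channel. Every group, controls included, went into cycloheximide (15 µg/ml), which blocks protein synthesis, at 1.5 hours post fertilization (hpf) and was frozen at 4.7 hpf, with 60 to 100 embryos in a sample. There were 5 groups. WT (3 samples) was wild type left without injection. MZ (3 samples) carried allele m793 of spg, the gene of zebrafish Pou5f1, from mother and zygote, also without injection. MZ_Pou5f1 (3 samples) was MZ given 100 pg of Pou5f1 mRNA. WT_Sox2 (3 samples) and MZ_Sox2 (4 samples) were given 50 pg of Sox2 mRNA. The injected groups were set against uninjected embryos, so injection itself and the mRNA injected cannot be told apart. In whole embryos fewer cells that use a gene and less of its RNA per cell cannot be told apart either.

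The samples did not sort fully by their labels. Over the 10747 probes brighter than the median probe, WT replicate 3 and MZ replicates 1 and 2 stood apart. All 3 were read on 1 slide, whose only other sample was WT replicate 2, and the part of the slide was not tested. The rank correlation of these 3 samples with the other 13 was 0.813 to 0.926. It was 0.936 to 0.971 among these 3 and 0.887 to 0.997 among the other 13. WT replicates 1 and 2 were read on different slides and in different dyes. Over the same 10747 probes their median absolute log2 difference was 0.117, below the 0.261 to 0.926 of the 17 other pairs within a group. Of the 2 probes of pou5f3, the gene altered in MZ, the brighter averaged 14.49 ± 0.46 (log2, SD, n = 3) over the WT samples and 15.25 ± 0.63 over the 3 MZ samples, and the fitted difference of MZ from WT was 0.95 (SE 0.40, limma adjusted p = 0.385) for it and 0.68 (SE 0.40, adjusted p = 0.494) for the other. In MZ_Pou5f1 against MZ the differences of the same 2 probes were -0.98 (SE 0.40, limma adjusted p = 0.409) and -0.82 (SE 0.40, adjusted p = 0.414). Where the 2 pou5f3 probes lie relative to the m793 change or the injected Pou5f1 mRNA was not known here. Where the sox2 probe lies relative to the injected Sox2 mRNA was not known either, so none of these probes checks the labels. Many, but not all, of the differences that rest on the 3 samples that stood apart are given below with and without them.

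Values below are normalised intensities on a linear scale, and means and differences are on the log2 scale. A probe's level cannot be set against another probe's on these arrays, so genes are compared only by their pattern over samples. Background in a sample means the higher of its dark and its negative control feature. It was 7.42 to 12.6 in 14 samples but 52.8 in WT replicate 3 and 133 in MZ replicate 1. The probes of sox2, sox3, sox19a and sox21a read above background in 16 of 16 samples, sox1b in 15 and sox1a in 14. The sox2 probe came closest to it among these 4, at 1.27 times background in MZ replicate 1.

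The sox3 gene, an early zygotic SoxB1 activator of the future neural plate, read 422, 395 and 2854 in WT replicates 1, 2 and 3. In MZ it read 8634, 10574 and 5558, so the lowest MZ sample lay above the highest WT sample. In MZ_Pou5f1 it read 937, 159 and 324, and in WT_Sox2 588, 1133 and 447. Both groups overlapped WT. In MZ_Sox2 it read 224, 6270, 2743 and 3430, with replicate 1 far below the other 3. Within this group only replicate 1 was read in Cy5, and it lay on another slide than the other 3. The order of the group means was MZ, MZ_Sox2, WT, WT_Sox2 and MZ_Pou5f1, at log2 values of 12.96 ± 0.47, 10.90 ± 2.12, 9.61 ± 1.62, 9.38 ± 0.69 and 8.51 ± 1.29. Errors of group means are SDs, with n = 4 in MZ_Sox2 and n = 3 in the other groups. Neighbours in this order overlapped in every case.

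The sox19a gene, the early zygotic counterpart of the maternal sox19b, followed a similar pattern. It read 1774, 1915 and 7038 in WT and 7443, 9385 and 8794 in MZ. The MZ samples lay close together and above every WT sample, although WT replicate 3 came near them. In MZ_Pou5f1 it read 3395, 399 and 1722, and in WT_Sox2 3131, 6681 and 1388. In MZ_Sox2 it read 526, 5731, 5990 and 4103, replicate 1 again the lowest. Group means ran from MZ at 13.05 ± 0.17 through WT_Sox2 at 11.59 ± 1.13, MZ_Sox2 at 11.52 ± 1.67 and WT at 11.49 ± 1.12 to MZ_Pou5f1 at 10.37 ± 1.58. Only MZ and WT_Sox2 among neighbours in that order did not overlap.

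The sox2 gene, which sustains pluripotent and neural precursor cells, had its groups in another order. Its probe read 108, 124 and 315 in WT and 168, 309 and 516 in MZ, and these groups overlapped. In MZ_Pou5f1 it read 40.5, 28.4 and 101, below every MZ and every WT sample. In WT_Sox2 it read 18.8, 22.4 and 37.8, again below every WT sample. The 4 MZ_Sox2 samples, at 50.7, 176, 147 and 41.3, spread from the MZ_Pou5f1 range into that of WT. The order of the means was MZ at 8.22 ± 0.81, WT at 7.33 ± 0.84, MZ_Sox2 at 6.42 ± 1.06, MZ_Pou5f1 at 5.61 ± 0.95 and WT_Sox2 at 4.65 ± 0.52, with overlap between all neighbours.

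For sox1b, a SoxB1 activator of the later nervous system, the order was turned. It read 953, 1279 and 6681 in WT, above every sample of every other group. In MZ it read 10.6, 95.7 and 270, and the value of 10.6 in MZ replicate 1 lay below that sample's background of 133. Only 2 of the 3 MZ samples therefore measured it. MZ_Pou5f1 samples read 234, 263 and 763, WT_Sox2 samples 255, 108 and 358, and MZ_Sox2 samples 131, 259, 274 and 341. These 3 groups overlapped one another and MZ. Means were 10.97 ± 1.51 in WT, 8.49 ± 0.94 in MZ_Pou5f1, 7.89 ± 0.59 in MZ_Sox2, 7.74 ± 0.89 in WT_Sox2 and 6.02 ± 2.39 in MZ. In that order only WT and MZ_Pou5f1 did not overlap as neighbours.

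The sox1a gene, active in the later lens and nervous system, read between 18.2 and 82.5 in all samples. It read 62.3, 47.5 and 42.0 in WT and 25.02, 18.2 and 24.1 in MZ, with WT replicate 3 and MZ replicate 1 below their own background. In MZ_Pou5f1 it read 47.6, 63.5 and 22.3, in WT_Sox2 55.7, 24.3 and 70.7, and in MZ_Sox2 82.5, 62.7, 37.8 and 52.1. The means were 5.82 ± 0.47 in MZ_Sox2, 5.64 ± 0.29 in WT, 5.52 ± 0.81 in WT_Sox2, 5.35 ± 0.78 in MZ_Pou5f1 and 4.47 ± 0.25 in MZ. Each group overlapped its neighbours in that order.

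The maternally supplied repressor gene sox21a gave the flattest profile. It read 1730, 1733 and 1135 in WT, 1226, 1165 and 3831 in MZ, 1726, 2096 and 2068 in MZ_Pou5f1, 1206, 1014 and 2852 in WT_Sox2, and 2938, 927, 2140 and 1692 in MZ_Sox2. All 5 groups overlapped. Their means lay between 10.55 ± 0.35 in WT and 10.93 ± 0.16 in MZ_Pou5f1, a span smaller than the SD within MZ of 0.97.

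**Figure D1:**
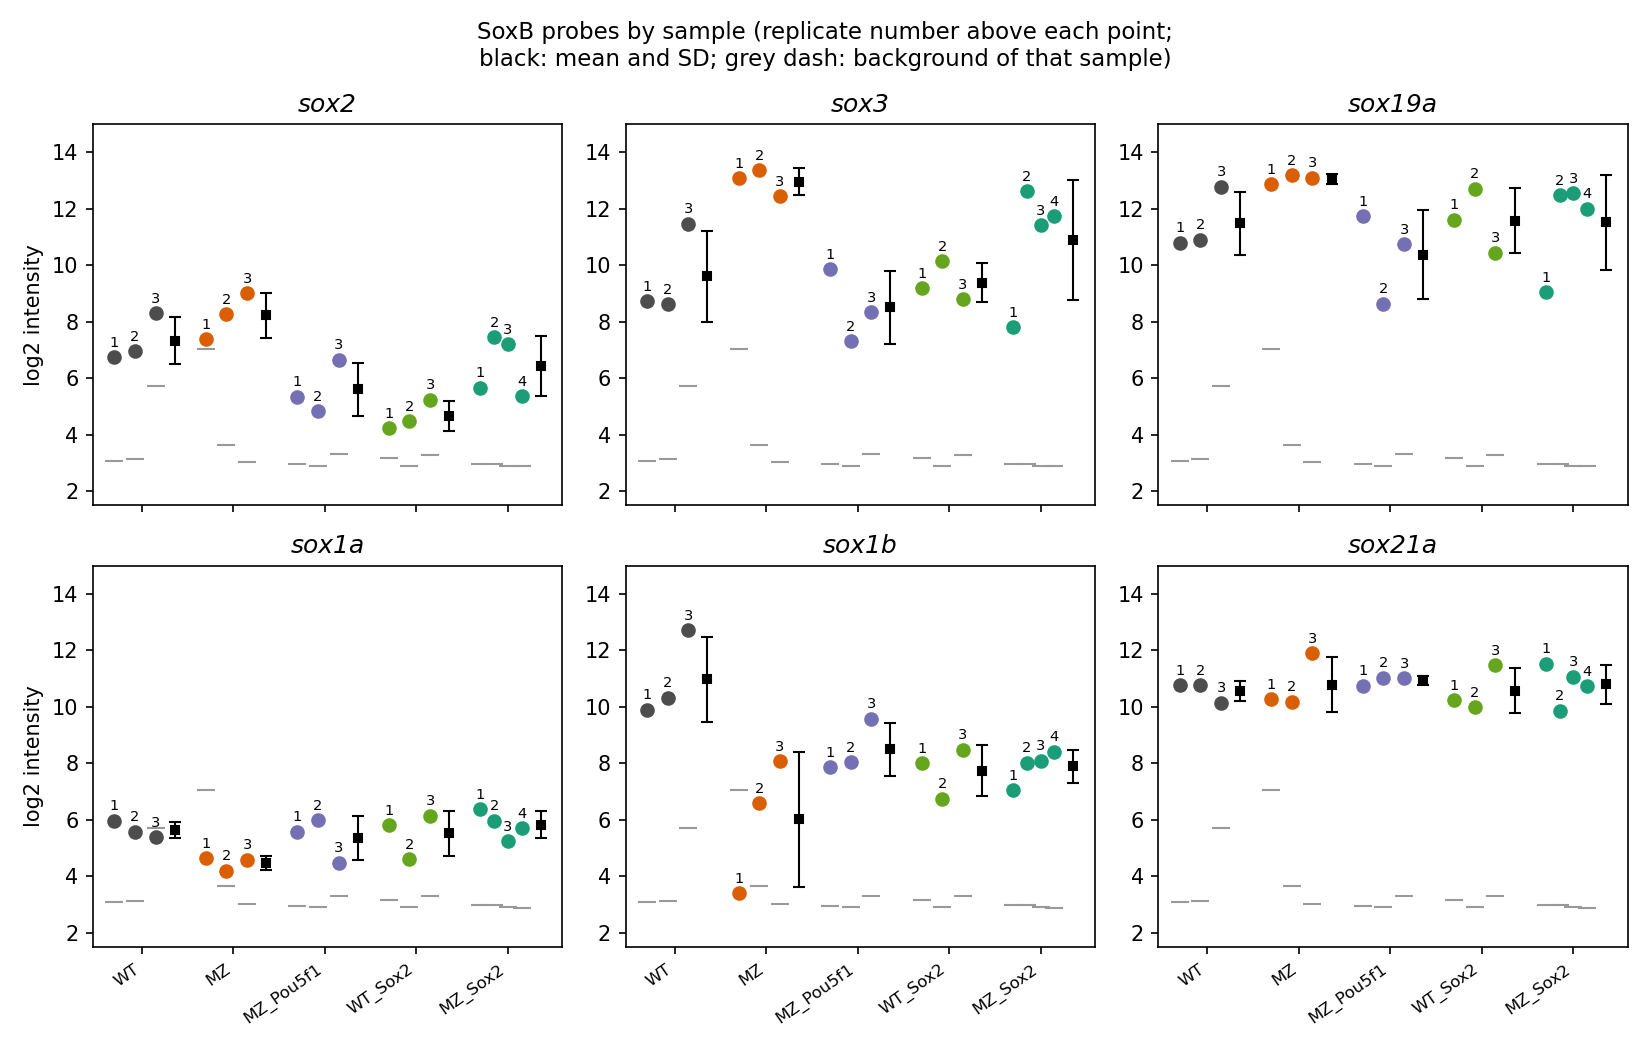
Log2 intensity of the 6 SoxB probes (y axis) by group (x axis), with coloured points for samples, black squares and bars for the mean and SD of 3 or 4 samples, and grey dashes for each sample's background. The MZ samples lie above all WT samples for sox3. With MZ_Sox2 replicate 4 mapped by rank, they also lie above all other samples for sox19a. The WT samples are the highest for sox1b, and sox21a is level across the groups.

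The spread over the 16 samples was larger for sox2, sox3, sox19a and sox1b than for the maternal sox21a and for sox1a, which is not known as maternal. The highest value was 66.5 times the lowest for sox3, 27.4 times for sox2 and 23.5 times for sox19a, against 4.13 times for sox21a and 4.52 times for sox1a. For sox1b the ratio was 633, but its lowest value lay under background. The SD of the log2 values was 2.00 for sox3, 1.98 for sox1b, 1.46 for sox2, 1.400 for sox19a, 0.68 for sox1a and 0.59 for sox21a, and the median over all probes was 0.61. Differences between group means made up 73.6% of the variance for sox2, 65.4% for sox1b, 60.7% for sox3, 50.1% for sox1a, 37.1% for sox19a and 6.09% for sox21a. These shares are not corrected for the number of groups, and spread between replicates alone also gives such a share. Those of sox1a and sox1b include values under background. Asked for any difference among the 5 groups, limma's moderated F test called 0 of 6 members after Benjamini-Hochberg adjustment over all probes, as it called 0% of the 21495 probes. Its unadjusted p was under 0.05 for sox2 (0.00181), sox1b (0.00588) and sox3 (0.00941), and above it for sox1a (0.0618), sox19a (0.141) and sox21a (0.962). Of all probes 10.1% had an unadjusted p under 0.05 in that test.

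MZ and WT samples were compared to ask which SoxB transcripts differ without maternal and zygotic Pou5f1 when no new protein is made. Here sox3 lay higher in MZ by 3.63 on the log2 scale (SE 1.08, 95% confidence interval 1.28 to 5.98, limma adjusted p = 0.310) and sox1b lay lower, with a difference of -4.67 (SE 1.001, interval -6.85 to -2.50, adjusted p = 0.248). The difference was 1.82 for sox19a (SE 0.96, interval -0.27 to 3.90), 0.97 for sox2 (SE 0.69, interval -0.53 to 2.47), -1.24 for sox1a (SE 0.45, interval -2.22 to -0.25) and 0.17 for sox21a (SE 0.54, interval -0.99 to 1.34). None of these passed limma's threshold of 0.05: 0 of 6 members were called, against 0.00465% of all probes, while 3 members (sox3, sox1a and sox1b) had an unadjusted p under 0.05, against 12.2% of all probes. The groups did not overlap for 2 members higher in MZ, sox3 and sox19a, and for 2 members lower in MZ, sox1a and sox1b, against 5.23% and 7.96% of all probes. For sox1a the separation rests on values under background in WT replicate 3 and MZ replicate 1, and with these set at 52.8 and 133 the groups overlap. The median difference of the 6 members was 0.57 and that of all probes -0.04.

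These differences did not rest equally on all samples. Without WT replicate 3 and MZ replicates 1 and 2, an alternative chosen after the data were seen that leaves 1 MZ sample, the difference was 3.30 for sox3 (adjusted p = 0.763), 1.88 for sox19a (0.864), 2.26 for sox2 (0.745), -1.03 for sox1a (0.826), -2.01 for sox1b (0.749) and 1.44 for sox21a (0.713). The lone MZ sample was then taken to vary like the other groups. With values under background raised to it, the sox1b difference was -3.59 and that of sox1a -0.61, and adjusted p was 0.948 for both. With WT replicates 1 and 2 averaged as 1 sample, in a fit that also left out dye and the array block, the sox3 difference was 2.89 (adjusted p = 0.553). Leaving out WT replicate 2 or MZ replicate 1 with the array correlation estimated anew brought sox3, sox1a and sox1b past the threshold, and the correlation then rested on 2 arrays (0.646 and 0.651, against 0.04286 over all samples).

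On 3 arrays an MZ and a WT sample were read side by side in opposite dyes, so the difference can be taken within 1 array. For sox3 MZ exceeded WT by 4.45, 1.89 and 3.72 on the log2 scale, on the arrays holding MZ replicates 1, 2 and 3 with WT replicates 2, 3 and 1. For sox19a the 3 differences were 1.96, 0.42 and 2.31. Both genes were thus higher in MZ on each array, as were 13.3% of all probes. For sox1b the differences were -6.92, -6.13 and -1.82, the first against a value under background, and for sox1a -0.92, -1.20 and -1.37, the first 2 with a value under background in MZ replicate 1 and in WT replicate 3. Both genes read lower in MZ on each array, as did 19.9% of all probes, but above background on both sides only 2 arrays show it for sox1b and 1 for sox1a. The sox2 differences of 0.44, -0.03 and 2.26 and the sox21a differences of -0.50, 0.04 and 1.15 had no common sign. The 3 arrays lay on 2 slides, and within these sox3 differed by 3.72 (1 sample per group) and 3.17 (2 per group), and sox1b by -1.82 and -6.52.

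**Figure D2:**
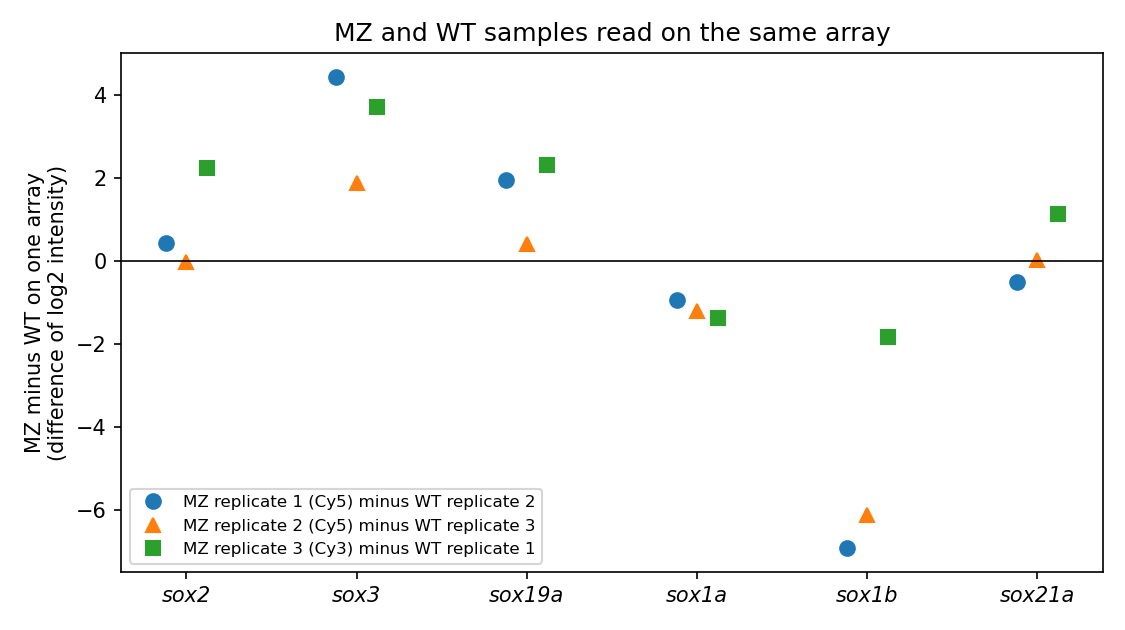
Difference of log2 intensity, MZ minus WT (y axis), for the 6 SoxB genes (x axis) on the 3 arrays that held one sample of each, with 1 symbol per array. All 3 symbols lie above 0 for sox3 and sox19a and below 0 for sox1a and sox1b, of which 2 for sox1a and 1 for sox1b rest on a value under background, while sox2 and sox21a fall on both sides.

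The level of sox3 and sox19a moved over samples with that of other early zygotic genes. Their level was read from 30 genes, vox, tbxta, gsc and fgf8a among them, as the median of their log2 intensities after centring each gene on its mean. This median was -1.18, -1.34 and 1.76 in WT replicates 1 to 3, 1.83, 2.15 and 0.79 in MZ, -0.06, -1.87 and -1.14 in MZ_Pou5f1, -0.32, 0.42 and -1.04 in WT_Sox2, and -1.54, 0.89, 0.35 and 0.79 in MZ_Sox2. WT replicate 3 thus stood with MZ, and MZ_Sox2 replicate 1 with WT replicates 1 and 2. Over the 16 samples the correlation with this median was 0.95 for sox3 (Spearman 0.97), 0.90 for sox19a (0.91) and 0.55 for sox2 (0.55), and -0.25 for sox1b (-0.31), -0.52 for sox21a (-0.60) and -0.58 for sox1a (-0.54). Taken as deviations from the group means it was 0.94 for sox3 and 0.86 for sox19a, so the relation was also present between replicates of a group. Without the 2 samples farthest from the median of the list it was 0.93 for sox3, 0.89 for sox19a and 0.40 for sox2. These points share arrays, slides and normalisation, and WT replicates 1 and 2 differ little. They include values under background, for sox1a in WT replicate 3 and MZ replicate 1 and for sox1b in MZ replicate 1.

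The summed intensity of the 30 genes ran from 19050 to 174200 in WT and from 92837 to 207525 in MZ, and from 26 to 30 of the 30 read above background in each sample. The part of this shift in the differences of sox3 and sox19a was not tested. On the array that held WT replicate 3 and MZ replicate 2, whose early zygotic medians were 1.76 and 2.15, sox19a differed by 0.42, sox2 by -0.03, sox3 by 1.89 and sox1b by -6.13. A list of maternal egg transcripts, of which 14 of 20 genes were measured, gave medians from -0.37 to 0.17 in WT and from -0.35 to 0.24 in MZ, which overlapped, and from 0.21 to 0.45 in WT_Sox2, above WT. The correlation of its median with sox21a was 0.38 over the 16 samples, and 0.29 without the 2 samples farthest from the median of the list. With the other members it was -0.59 for sox3, -0.55 for sox2, -0.42 for sox19a, 0.16 for sox1a and 0.03 for sox1b.

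Markers of other tissues of the embryo also differed between samples. For the enveloping layer, the outer covering of the embryo, 7 of 8 markers were measured, and their summed intensity ran from 929 to 8812 in WT, 1560 to 16133 in MZ, 949 to 1645 in MZ_Pou5f1, 1150 to 2108 in WT_Sox2 and 965 to 43914 in MZ_Sox2. The median of these markers correlated with sox3 at 0.83 and with sox21a at -0.53. Neural ectoderm markers, 6 of 7 measured, summed to 12677 to 26593 in WT and 21688 to 22220 in MZ. Their median correlated with sox2 at 0.60, sox19a at 0.43, sox3 at 0.40, sox1b at 0.02, sox21a at -0.03 and sox1a at -0.61. Here too sox1a and sox1b include values under background. For the yolk syncytial layer (5 of 6 measured) the median correlated with sox3 at 0.65, and for the germ line (5 of 5) at -0.77. Of the 5 yolk syncytial markers only 2, 3 and 2 read above background in MZ replicates 1, 2 and 3, so this median rests partly on values under background. In each sample at least 4 enveloping layer markers, 4 neural ectoderm markers and all 5 germ line markers read above background. The part of these tissues in the SoxB differences was not tested.

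**Figure D3:**
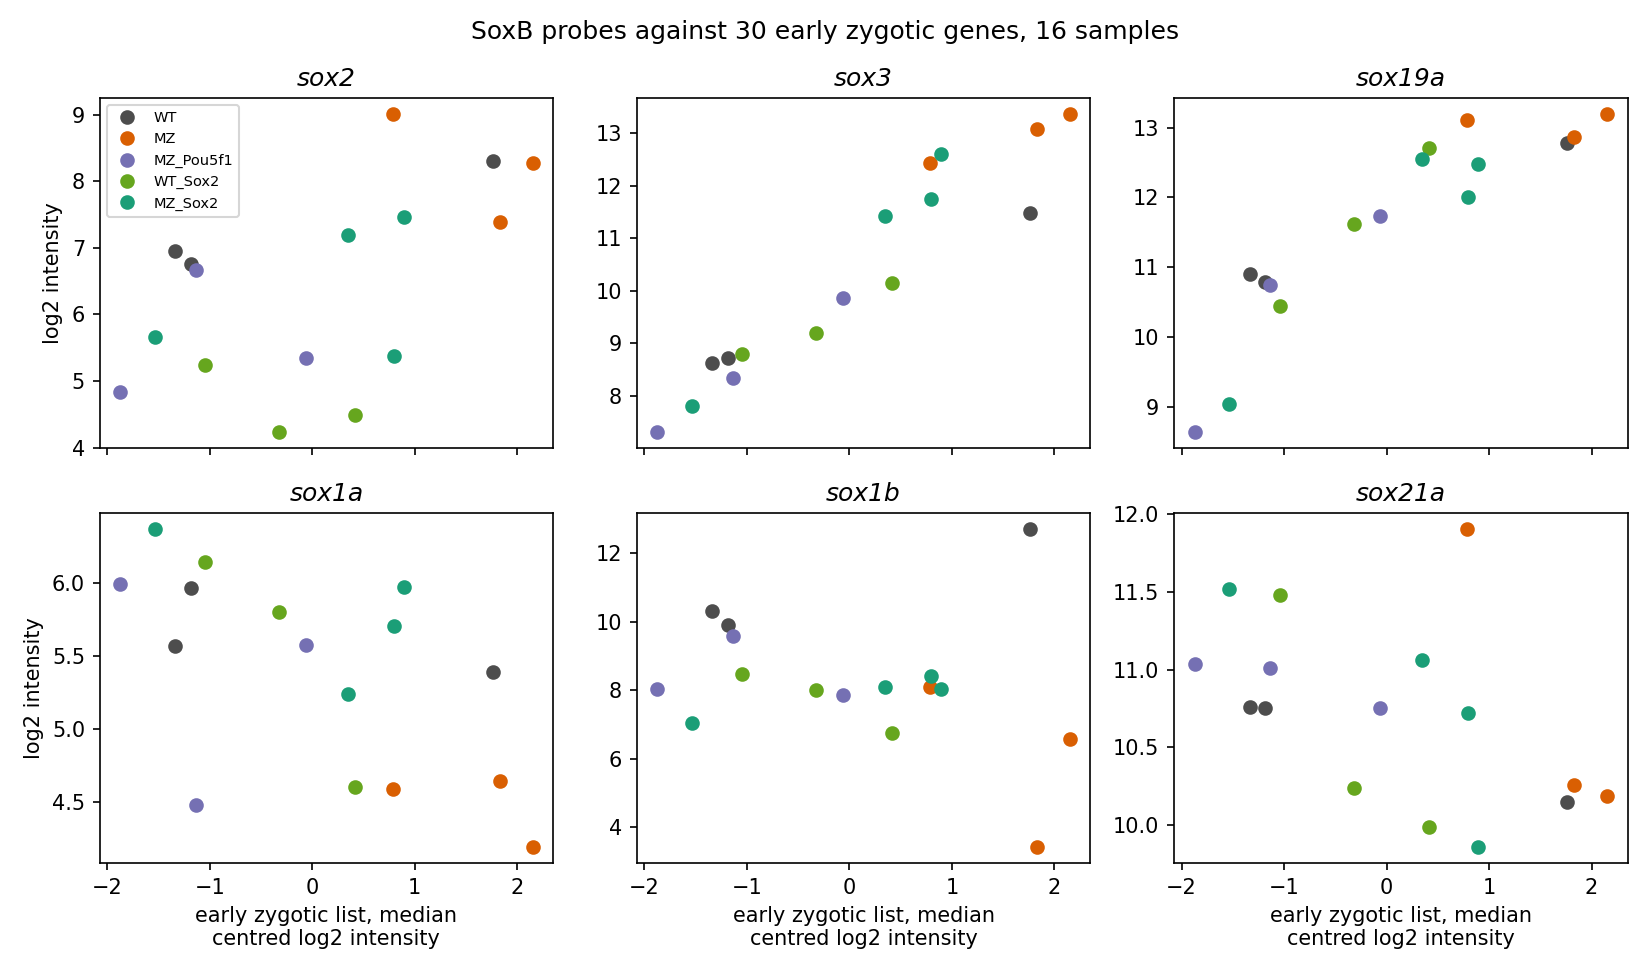
Log2 intensity of each SoxB probe (y axis) against the median centred log2 intensity of 30 early zygotic genes (x axis) in 16 samples, coloured by group. The points of sox3 and sox19a lie along a rising line that runs through all groups, with WT replicate 3 beside the MZ samples, while those of sox2, sox1a, sox1b and sox21a scatter more widely.

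Members differed in how they went together. Over the 16 samples sox3 and sox19a correlated at 0.90 (Spearman 0.91), and at 0.92 as deviations from the group means. The sox2 probe correlated with sox3 at 0.63 and with sox19a at 0.53. The sox1b probe correlated with sox2 at 0.15 over all samples and at 0.68 as deviations from the group means. Both values include MZ replicate 1, where sox1b lay under background and sox2 at 1.27 times background. Correlations of sox21a with the other 5 lay between -0.46 and 0.19, and those of sox1a with the SoxB1 genes sox2, sox3 and sox19a between -0.65 and -0.46. The sox1a values include WT replicate 3 and MZ replicate 1, where it lay under background. Without the 2 samples farthest from the median of sox2, sox3 or sox19a in turn, they were -0.35, -0.33 and -0.55.

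Named genes with the most similar pattern were sought by Pearson correlation over the 16 samples among the brighter named genes. For sox3 these were vox (0.96), a ventral homeobox repressor, cxcr4a (0.96), a chemokine receptor of migrating cells, and sox11a (0.96), a SoxC factor, and both vox and cxcr4a belong to the early zygotic list. For sox19a they were cited2 (0.96), a coregulator that binds the CBP and p300 acetyltransferases, her11 (0.94), a Hairy-related repressor gene, and asb11 (0.93), which encodes an ankyrin repeat protein with a SOCS box. For sox2 they were hsd17b10 (0.89), a mitochondrial dehydrogenase, slc43a2b (0.88), an amino acid transporter, and arrdc3a (0.87), an arrestin-domain gene. For sox1b they were naxd (0.96), cacna1c (0.91), a calcium channel subunit, and pora (0.90), the cytochrome P450 reductase. For sox21a they were kgd4 (0.89), armc1l (0.88) and tmco1 (0.83). The likest genes to sox1a, sumf2, disp1 and znf740b, reached only 0.71, 0.70 and 0.70. Values under background entered these correlations, for sox1b in MZ replicate 1 and for sox1a in WT replicate 3 and MZ replicate 1.

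MZ_Pou5f1 samples were set against MZ to ask which SoxB transcripts respond to Pou5f1 without new protein. For sox2, sox3 and sox19a the highest MZ_Pou5f1 sample read lower than the lowest MZ sample, as it did for 6.51% of all probes, and no member lay wholly above MZ, against 10.4%. For sox2 the lowest MZ sample was replicate 1, at 168 against a background of 133. The log2 difference was -4.45 for sox3 (SE 1.08, interval -6.80 to -2.11), -2.68 for sox19a (SE 0.96, interval -4.76 to -0.60) and -2.61 for sox2 (SE 0.69, interval -4.11 to -1.12), with a limma adjusted p of 0.409 for each. For sox1b it was 2.47 (SE 0.999, interval 0.30 to 4.64, adjusted p = 0.409), for sox1a 0.87 (SE 0.45, interval -0.11 to 1.86) and for sox21a 0.15 (SE 0.54, interval -1.01 to 1.31). Limma called 0 of 6 members and 0% of all probes, while 4 members, sox2, sox3, sox19a and sox1b, had an unadjusted p under 0.05, against 12.2% of all probes. The median difference of the 6 members was -1.23 and that of all probes 0.06. The early zygotic medians given above were lower in each MZ_Pou5f1 sample than in each MZ sample, and 2 of the 30 genes had positive differences.

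This comparison and that of MZ with WT share the MZ samples, so their values are set side by side only. For sox3 they were 3.63 and -4.45, for sox19a 1.82 and -2.68, for sox2 0.97 and -2.61, and for sox1b -4.67 and 2.47. Set against WT directly, MZ_Pou5f1 differed by -0.83 for sox3 (SE 1.11, interval -3.23 to 1.57), -0.86 for sox19a (SE 0.98), -1.64 for sox2 (SE 0.70, interval -3.17 to -0.12), -2.20 for sox1b (SE 1.02, interval -4.42 to 0.02), -0.37 for sox1a (SE 0.46) and 0.32 for sox21a (SE 0.55). Limma called 0 of 6 members and 0% of all probes there (smallest adjusted p of a member 0.675), and 1 member, sox2, had an unadjusted p under 0.05, against 7.24% of all probes. For sox2 and sox1b every MZ_Pou5f1 sample read lower than every WT sample, as happened for 8.84% of all probes, and no member lay wholly above WT, against 6.66%.

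All MZ_Pou5f1 samples were on 1 slide, which held 1 MZ sample, replicate 3. Within it the difference from MZ was -3.93 for sox3, -2.73 for sox19a, -3.40 for sox2, 0.42 for sox1b, 0.76 for sox1a and -0.97 for sox21a. The sox1b difference was thus smaller there, and it was 0.38 without WT replicate 3 and MZ replicates 1 and 2 and 1.26 with values under background raised to it, which also took the sox1a difference to 0.07. Leaving out MZ_Pou5f1 replicate 2 moved the sox19a difference from MZ to -1.29 and that of sox1a to 0.39, leaving out MZ_Pou5f1 replicate 3 moved sox1a to 1.36, and leaving out MZ replicate 1 moved sox1b to 1.26. Without WT replicate 3 and MZ replicates 1 and 2 the difference from MZ was -3.31 for sox3, -2.23 for sox19a and -3.53 for sox2 (adjusted p = 0.464), and no member passed. Leaving out MZ replicate 3 raised the number of probes called to 491, with none of the members among them, and with the array correlation estimated anew to 958, sox3 among them (adjusted p = 0.0432).

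Sox2 mRNA in MZ embryos asks what Sox2 does to these transcripts without Pou5f1. The log2 difference of MZ_Sox2 from MZ was -2.41 for sox3 (SE 1.05, interval -4.69 to -0.12), -1.90 for sox2 (SE 0.67, interval -3.36 to -0.44), -1.86 for sox19a (SE 0.93, interval -3.88 to 0.17), 1.52 for sox1b (SE 0.97, interval -0.59 to 3.64), 1.43 for sox1a (SE 0.44, interval 0.47 to 2.39) and 0.08 for sox21a (SE 0.52, interval -1.06 to 1.21). The limma adjusted p was 0.770 for the first 5 of these and 0.967 for sox21a, and 0 of 6 members and 0% of all probes were called. Unadjusted, 3 members (sox2, sox3 and sox1a) had a p under 0.05, against 4.82% of all probes. All 4 MZ_Sox2 samples lay above all 3 MZ samples for sox1a and below them for sox19a, against 2.11% and 2.09% of all probes in those directions. The sox1a value of MZ replicate 1 was under background, and set at that background of 133 it lies above all 4 MZ_Sox2 samples. With values under background raised to it the difference was 0.71 for sox1a (adjusted p = 0.548) and 0.48 for sox1b (adjusted p = 0.714). Leaving out MZ replicate 1 or MZ replicate 3 moved the sox1b difference to 0.46 or 2.72. Leaving out MZ_Sox2 replicate 1, whose early zygotic median was the lowest of its group at -1.54, moved the differences to -0.98 for sox3 and -0.76 for sox19a. MZ_Sox2 and MZ shared no slide, so a slide effect and the injection cannot be told apart. Without WT replicate 3 and MZ replicates 1 and 2 the sox1b difference was -0.20 and that of sox3 -1.31. In the same fit it was -2.64 for sox2, -1.40 for sox19a and 1.16 for sox1a.

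In wild type embryos the same injection was read against WT. The log2 difference was -2.68 for sox2 (SE 0.69, interval -4.17 to -1.18, limma adjusted p = 0.120) and -3.23 for sox1b (SE 0.999, interval -5.40 to -1.06, adjusted p = 0.182). The other 4 lay near 0, at -0.23 for sox3 (SE 1.08), 0.09 for sox19a (SE 0.96), -0.13 for sox1a (SE 0.45) and 0.01 for sox21a (SE 0.54). Their intervals still ran from -2.57 to 2.12 for sox3 and from -1.98 to 2.17 for sox19a, so differences of either sign up to these bounds were not excluded. Limma called 0 of 6 members, against 0.0977% of all probes, and 2 members, sox2 and sox1b, had an unadjusted p under 0.05, against 14.5% of all probes. For the same 2 genes all WT_Sox2 samples lay below all WT samples, as they did for 15.3% of all probes, and no member lay wholly above WT, against 12%. Without WT replicate 3 and MZ replicates 1 and 2 the differences were -2.16 for sox2 (adjusted p = 0.172) and -2.36 for sox1b (adjusted p = 0.130). WT_Sox2 and WT shared no slide either.

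Whether the Sox2 injection acted differently in MZ and WT embryos was tested by the difference of both effects. It was 4.75 for sox1b (SE 1.38, interval 1.76 to 7.75, limma adjusted p = 0.396), 1.56 for sox1a (SE 0.63, interval 0.20 to 2.92, adjusted p = 0.514), 0.78 for sox2 (SE 0.95), -1.95 for sox19a (SE 1.32), -2.18 for sox3 (SE 1.49) and 0.07 for sox21a (SE 0.74). Limma called 0 of 6 members and 0% of all probes, and 2 members, sox1a and sox1b, had an unadjusted p under 0.05, against 9.09% of all probes. For sox1b the injected groups lay close together, with means of 7.89 ± 0.59 in MZ_Sox2 and 7.74 ± 0.89 in WT_Sox2, while MZ differed from WT by -4.67. The value of 4.75 uses the same MZ and WT samples as that difference. The sox2 difference had an interval from -1.28 to 2.84, which holds 0 as well as differences larger than its effect in MZ. Without WT replicate 3 and MZ replicates 1 and 2 the sox1b value was 2.16 (adjusted p = 0.722). With values under background raised to it the sox1a value was 0.95. Without MZ_Sox2 replicate 1 the sox3 value was -0.75 and the sox19a value -0.85. Over 35 alternatives the sox3 value ran from -4.96 to -0.75 and the sox19a value from -4.09 to -0.85. All WT_Sox2 samples were on 1 slide, which held only replicate 1 of MZ_Sox2. Neither injected group shared a slide with MZ or WT. The difference of effects could still be fitted with slide as a fixed block, but for MZ_Sox2 it then rested on replicate 1 alone.

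**Figure D4:**
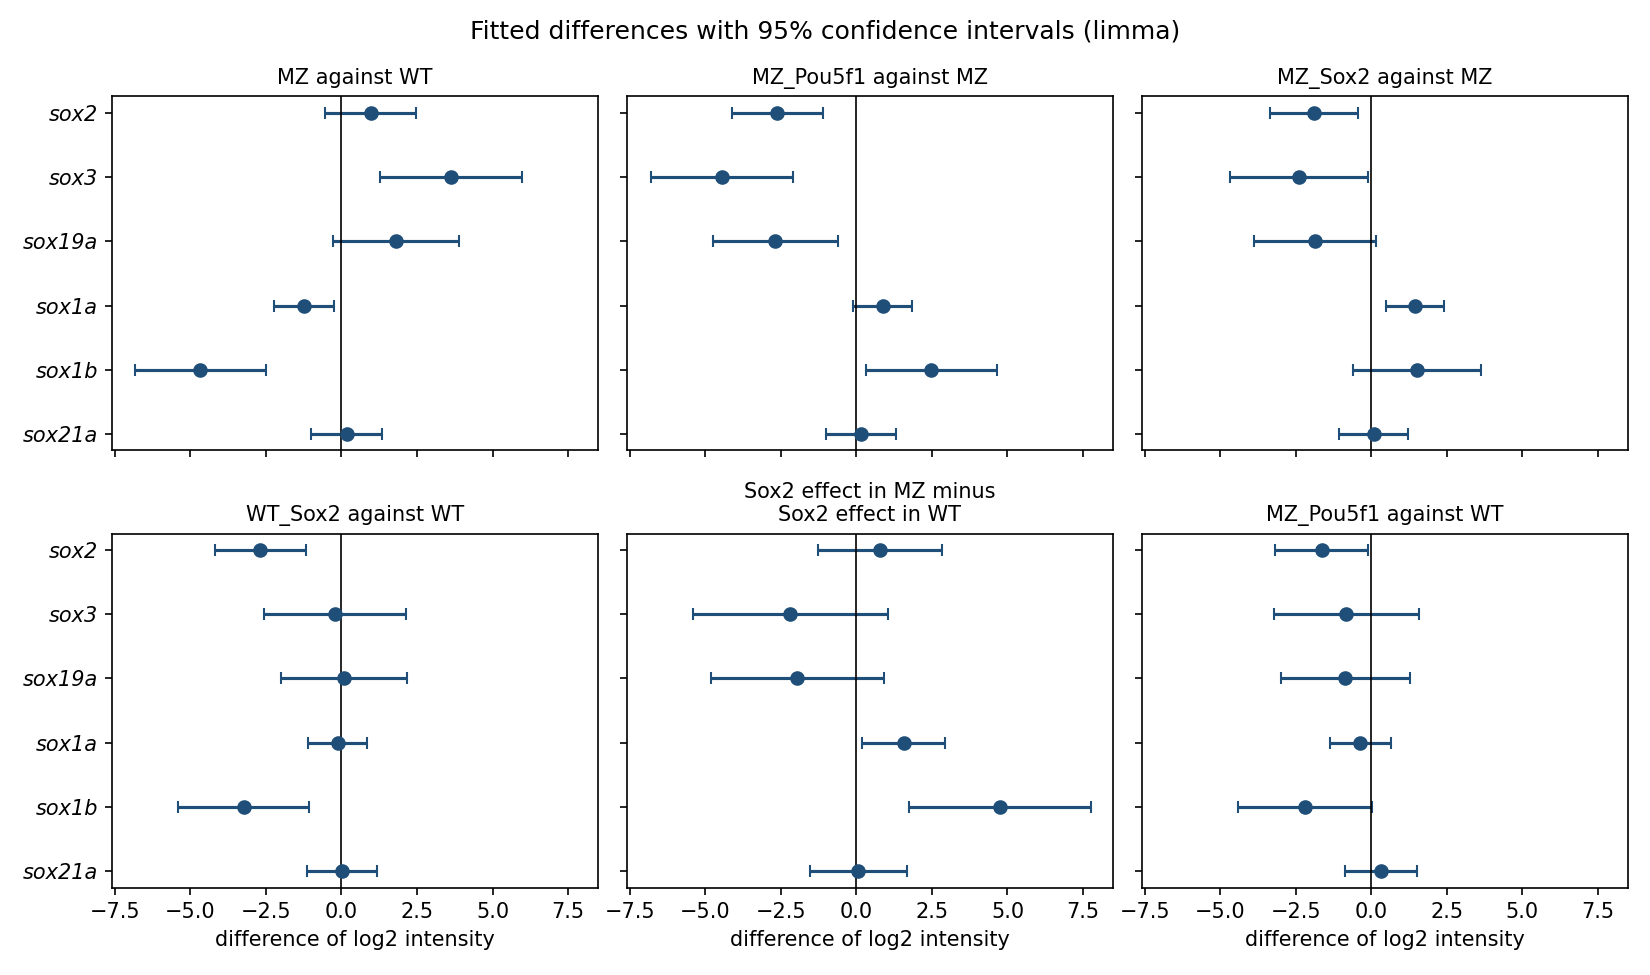
Fitted difference of log2 intensity (x axis) with its 95% confidence interval for the 6 SoxB genes (y axis) in 6 comparisons from limma. Intervals of sox3 and sox1b lie on opposite sides of 0 in MZ against WT, and that of sox21a spans 0 in every panel.

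Other Sox genes outside the SoxB group numbered 12 on the array. Limma called 0 of the 12 in any of the 6 comparisons, and at most 4 had an unadjusted p under 0.05, in MZ against WT, all 4 higher, where 12.2% of all probes had one. Of these 4, sox8b and sox17 read under background in all 3 WT samples. The SoxC gene sox11a, a neural factor, read 117, 114 and 3988 in WT and 5931, 4854 and 1599 in MZ, a difference of 3.65 (SE 1.55, adjusted p = 0.385), and -4.54 in MZ_Pou5f1 against MZ (SE 1.55, adjusted p = 0.409). WT replicate 3 again read with the MZ samples. The SoxE gene sox8b read 7.33, 7.25 and 6.30 in WT, under background in each sample, and 52.5, 57.7 and 21.2 in WT_Sox2, with an adjusted p of 0.0912. The endodermal SoxF gene sox17 read 6.57, 6.24 and 8.26 in WT, again under background in each sample, and 15.9, 18.6 and 25.1 in WT_Sox2 (adjusted p = 0.264). In MZ it read 8.82, 34.6 and 19.8, with replicate 1 under background, and in MZ_Sox2 only 1 of 4 samples read above background (adjusted p = 0.770), so no size is given for either difference. Among the 12, sox8b had the largest moderated statistic in MZ_Pou5f1 against WT (adjusted p = 0.599) and in the difference of Sox2 effects (adjusted p = 0.385). No size is given for these, since it read under background in every WT sample. The endodermal gene sox32 differed by -1.25 in MZ_Pou5f1 against WT (adjusted p = 0.690) and the SoxC gene sox11b by -0.50 in MZ_Pou5f1 against MZ (adjusted p = 0.409).

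Of 11 genes placed downstream of SoxB1 factors in zebrafish, 7 were measured and limma called 0 in any comparison. The strongest was her3, a Hairy-related repressor of neurogenesis in the neural plate, which read 36.1, 22.2 and 2740 in WT, 1220, 2783 and 290 in MZ, and 6.62, 12.4 and 43.8 in MZ_Pou5f1. Its difference was 3.37 in MZ against WT (SE 1.77, adjusted p = 0.459) and -6.02 in MZ_Pou5f1 against MZ (SE 1.76, adjusted p = 0.409), where the 6.62 of MZ_Pou5f1 replicate 1 lay under that sample's background of 7.75. WT overlapped MZ through replicate 3, while every MZ_Pou5f1 sample lay below every MZ sample. The retinoic acid hydroxylase gene cyp26a1 differed by -1.41 in MZ_Pou5f1 against MZ (SE 0.44, adjusted p = 0.409), and 4 of the 7 genes had an unadjusted p under 0.05 there, all lower, against 12.2% of all probes. In MZ_Sox2 against MZ the non-canonical Wnt ligand wnt11f2 differed by -1.88 (SE 0.71) and her3 by -3.62 (SE 1.72), with an adjusted p of 0.770 for each. In WT_Sox2 against WT wnt11f2 differed by -1.23 (SE 0.73, adjusted p = 0.462) and cyp26a1 by -0.70 (SE 0.44, adjusted p = 0.478). In MZ against WT the Nodal co-receptor gene tdgf1 differed by 0.73 (SE 0.35, adjusted p = 0.424). The proneural gene neurog1 had a difference of Sox2 effects of -2.17 (SE 0.83, adjusted p = 0.487).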

How the data were processed

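The authors deposited linear probe intensities, read with Agilent Feature Extraction per the submitters' processing notes. Cy3 and Cy5 were separated into single channels and quantile normalised, per the labels' design text. Background correction and software version are not stated. The sorted values of 14 of the 16 columns were identical, and MZ_Pou5f1 replicate 2 and MZ_Sox2 replicate 4 were mapped by rank onto them. Of 21555 features 60 controls were left out, and the log2 of the intensity values as deposited, so mapped, was used.

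All 16 samples entered 1 limma fit with group means, a dye term and a random block for array (correlation 0.04286), since 3 arrays held an MZ and a WT sample. P-values were two-sided, adjusted by Benjamini-Hochberg over 21495 probes, with 0.05 as threshold. The code was tested on simulated data with independent noise and no array block, so the array block itself was not tested. Slides were taken from the array identifiers in the labels. Replicates are described as biological. Precision is limited by how many arrays there are.

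Genes were named through the platform's annotation (12887 probes had a symbol, 8608 none), checked against the RefSeq genes of GRCz12tu. Members, lists and comparisons were chosen with earlier results of these data known. The rule named every member probe in each comparison, the 2 other Sox genes and the 2 downstream genes with the largest moderated statistic, the partner pou5f3, and 3 genes by likeness among probes brighter than the median. Not every other Sox or downstream gene so named is printed for each comparison. Settings for normalization, log offset, dye, array, slide, replicate number, samples and dim probes were varied. R 4.3.3, limma 3.58.1, version 1.17.8 of data.table, Python 3.11.15 and matplotlib 3.10.9 were used.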

Additional observations from a re-analysis of the deposited data

Results flagged for a closer look

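Within MZ_Sox2 the sox19a intensity of replicate 1, 526, stood far from the other 3 samples, which read 4103 to 5990. The gap to the nearest of them made up 0.844 of the group's whole range on the log2 scale, above Dixon's 95% critical value of 0.829 for 4 samples. For a gene fixed beforehand, chance gives such a value in about 1 in 20 groups. The ratio was computed for every SoxB gene in this group, and sox19a was picked because it passed. Chance therefore gives at least 1 passing gene more often than that rate, and the value is a flag only. The sox3 probe of the same sample read 224, with a ratio of 0.752 that did not pass. Of its 30 early zygotic genes 29 read above background. Leaving that sample out moved the sox19a difference of MZ_Sox2 from MZ from -1.86 to -0.76. That sample alone in its group was read in Cy5, and it lay on another slide than the other 3. Sample, dye and slide thus cannot be told apart here.

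For sox1b all 4 MZ_Sox2 samples lay above the MZ mean, by 1.02 to 2.39 on the log2 scale, and all 3 WT_Sox2 samples lay below the WT mean, with differences of -4.22 to -2.49. The difference of both effects was 4.75 (SE 1.38) and did not pass limma's threshold (adjusted p = 0.396). It uses the same MZ and WT samples as the difference of MZ from WT, which was -4.67. The injected groups themselves lay close together, with means of 7.89 in MZ_Sox2 and 7.74 in WT_Sox2. The MZ mean holds 1 value under background, 10.6 in MZ replicate 1, where background was 133. That all 4 MZ_Sox2 samples lay above this mean therefore rests in part on a value under background. With such values raised to background the MZ_Sox2 difference from MZ was 0.48 and the difference of both effects 3.71, and without WT replicate 3 and MZ replicates 1 and 2 it was 2.16.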

How the results depend on the processing

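Of the 924 recomputed member differences under the alternatives listed at the outset, 891 kept their direction and their side of the threshold and 33 turned, while 0 members were called under any of them. Under the 4 kinds of alternative added after seeing the data 292 of 324 did so, 25 turned and 7 passed the threshold. The kind that left out each WT or MZ sample in turn, with the array correlation estimated anew, held 6 fits. The cause of these shifts was not tested.

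The number of probes limma called in MZ against WT, 1 with all samples, was 0 with values as deposited, with slide as a fixed block, with values raised to background, with WT replicates 1 and 2 averaged and with only the groups compared, 2 with log2 of value plus 16 and 145 without WT replicate 3 and MZ replicates 1 and 2. For WT_Sox2 against WT, 21 with all samples, it was 0 with values as deposited, 75th percentile scaling, slide as a random block, values raised to background, WT replicates 1 and 2 averaged and only the groups compared, and 7 without the 3 samples. Without those 3 it was 149 for MZ_Pou5f1 against MZ, 161 for MZ_Sox2 against MZ, 103 for the difference of Sox2 effects and 128 for any difference among groups, each 0 with all samples. With only the groups compared it was 22 for MZ_Pou5f1 against MZ and 2 for the difference of Sox2 effects, which was 65 with slide as a fixed block. For any difference among groups it was 1 with log2 of value plus 16 and 2 without the dye covariate. Slide as a fixed block could not be fitted for MZ_Sox2 against MZ, WT_Sox2 against WT and any difference among groups.

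Leaving out 1 sample at a time, with the array correlation held or estimated anew, gave 0 to 1431 calls for MZ against WT, 0 to 958 for MZ_Pou5f1 against MZ, 0 to 13 for MZ_Sox2 against MZ, 0 to 190 for WT_Sox2 against WT, 0 to 22 for the difference of Sox2 effects, 0 to 5 for MZ_Pou5f1 against WT and 0 to 58 for any difference among groups. The upper ends of the first 2 came with a new array correlation without WT replicate 2 and without MZ replicate 3. In MZ against WT the adjusted p was then 0.0408 for sox3, 0.0456 for sox1a and 0.0130 for sox1b without WT replicate 2, and 0.0421, 0.0434 and 0.0113 without MZ replicate 1, with 1359 probes called. The leave-one-out range in that comparison was 2.88 to 4.44 for sox3, -1.44 to -1.04 for sox1a, -5.83 to -3.58 for sox1b and -0.76 to 0.56 for sox21a. In MZ_Pou5f1 against MZ it was -5.31 to -3.38 for sox3, -3.53 to -1.29 for sox19a, 0.39 to 1.36 for sox1a, 1.26 to 3.43 for sox1b and -0.27 to 0.93 for sox21a, and in MZ_Sox2 against MZ -3.25 to -0.98 for sox3, -2.22 to -0.76 for sox19a, 0.46 to 2.72 for sox1b and -0.32 to 1.05 for sox21a. In WT_Sox2 against WT it was -1.02 to 0.65 for sox3, -0.39 to 0.66 for sox19a, -0.43 to 0.32 for sox1a and -0.48 to 0.29 for sox21a. The difference of Sox2 effects of sox21a ran from -0.34 to 1.04. In MZ_Pou5f1 against WT it was -1.60 to 0.46 for sox3, -1.63 to 0.79 for sox19a and -0.94 to 0.0799 for sox1a.

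In MZ_Pou5f1 against MZ the sox21a difference turned to -0.0588 under a random and to -0.511 under a fixed slide block, to -0.13 in WT_Sox2 against WT with slide as a random block and to -0.27 in MZ_Pou5f1 against WT with slide as a fixed block. It turned to -0.11 in MZ_Sox2 against MZ with only the groups compared, and its difference of Sox2 effects to -0.0039 without the dye covariate and to -0.11 with WT replicates 1 and 2 averaged. Without the 3 samples it was -1.37 in MZ_Pou5f1 against MZ, -1.26 in MZ_Sox2 against MZ, -0.0919 in WT_Sox2 against WT and -1.17 for the difference of Sox2 effects. In WT_Sox2 against WT sox3 turned to 0.19 with slide as a random block and to 0.55 without the 3 samples, and sox19a to -0.23 with WT replicates 1 and 2 averaged. Without the 3 samples sox1b turned to -0.20 in MZ_Sox2 against MZ and the difference of Sox2 effects of sox2 to -0.47.

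The shared replicate numbers are not said to mark pairs. Over the 10747 probes brighter than the median, deviations from the group means of samples with the same number correlated at -0.676 to 0.509 (30 pairs, median -0.139). With the replicate block limma called 2 probes in MZ against WT, 0 in WT_Sox2 against WT and 0 in the other 4 comparisons and in the F test, none of them a member. The sox3 and sox1b differences of MZ from WT were then 3.55 (adjusted p = 0.557) and -4.82 (adjusted p = 0.317).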
